A study of Mus musculus with 11 samples.

Results

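The genes described are 10 genes of the fat cell among the 28284 genes counted in bulk RNA sequencing of 11 OvTrpMyc cell lines. They are Adipoq, Plin1, Plin4, Fabp4, Lpl, Cidec, Cfd, Pparg, Lep, and Cd36, taken as a list by name, and all 10 were found in the count table. The question was whether RNA of fat cells was present beside the RNA of skeletal muscle fibers, for which Myh4 was read, in the libraries numbered 1 to 7.

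OvTrpMyc mice are heterozygous for an Ovgp1-Trp53-R270H-Myc transgene, placed in the endogenous Trp53 locus and kept on the C57BL/6J strain, in which the Ovgp1 promoter of oviduct secretory cells drives mutant p53 and Myc. All 11 lines carry this genotype in their labels, no wild-type line was sequenced, and the methods state that mutant p53 reads were not seen in the F361 line. Lines came from 7 mice, whose ages are not in the labels, as 7 ovary lines (ROV is a right and LOV a left ovary), 2 uterus lines, 1 splenic tumor line, and 1 peritoneal tumor line. Ovaries were cut away from their fat pads, and minced tissue was grown and passaged in RPMI medium without treatment, and no cloning step is described in the methods. In order, libraries 1 to 7 are F364 ROV, F326 splenic tumor, F364 LOV, F326 ROV, F361 peritoneal tumor, F319 ROV, and F318 ROV, and libraries 8 to 11 are F339 ROV, F318 LOV, and the uterus lines F319 and F333. The labels do not say what the numbers stand for.

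White fat cells store triglyceride in 1 large lipid droplet and release hormones into the blood. Pparg is the nuclear receptor that drives their differentiation, Plin1, Plin4, and Cidec coat or enlarge the droplet, Lpl, Cd36, and Fabp4 bring in and carry fatty acids, and Adipoq, Cfd, and Lep encode the secreted proteins adiponectin, adipsin, and leptin. Several of these genes are not private to fat. Lpl, Cd36, and Plin4 are also active in muscle, and Fabp4 and Cd36 in the endothelium of its capillaries, whereas Adipoq, Plin1, Cidec, Cfd, and Lep are close to restricted to fat. This grouping rests on textbook roles but was made with the values known.

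Libraries held 13580525 to 27044598 counts, with a median of 17517765. Levels are given as CPM, counts per 1000000 counts of the library, and a gene with fewer than 3 counts, 0.111 to 0.221 CPM, was taken as not detected. A list of 23 muscle fiber genes took 7.13% to 13.2% of the counts in libraries 1 to 7 and 0.150% to 1.15% in libraries 8 to 11. The split by number was first noticed in these data, on muscle genes, and Myh4 ranged from 12090 to 32188 CPM on one side and from 339.1 to 2676 CPM on the other. The labels call every line ovarian cancer, yet Epcam was at most 2.12 CPM in any library, and the epithelial keratin gene Krt8 was at 52.7 CPM in F319 ROV and at most 0.663 CPM elsewhere. Its partner Krt18 was at 67.9 CPM in F319 ROV, 39.9 CPM in F364 ROV, 5.82 CPM in F318 ROV, and at most 1.52 CPM elsewhere. Pax8, the duct transcription factor, was at 3.04 CPM in F319 ROV and at most 0.259 CPM elsewhere, and Cdh1 was at most 3.68 CPM.

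The starts of 4 genes near-restricted to fat are shown because these genes stood among the most variable members in libraries 1 to 7. Each is the 250 bases before the RefSeq start on GRCm38.p6, written 5′ to 3′ along the strand of the gene. They are chr16:23146286-23146535 on the plus strand for Adipoq, chr7:79732777-79733026 on the minus strand for Plin1, chr10:79890603-79890852 on the plus strand for Cfd, and chr6:29059971-29060220 on the plus strand for Lep. Capitals mark TTGCNNAA, a form of the site that C/EBP proteins, partners of Pparg in fat cell differentiation, bind.
Adipoq: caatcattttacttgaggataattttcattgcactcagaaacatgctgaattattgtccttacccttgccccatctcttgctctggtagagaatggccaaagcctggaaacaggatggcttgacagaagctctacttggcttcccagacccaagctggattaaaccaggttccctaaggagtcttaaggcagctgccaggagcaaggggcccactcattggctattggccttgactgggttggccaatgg
Plin1: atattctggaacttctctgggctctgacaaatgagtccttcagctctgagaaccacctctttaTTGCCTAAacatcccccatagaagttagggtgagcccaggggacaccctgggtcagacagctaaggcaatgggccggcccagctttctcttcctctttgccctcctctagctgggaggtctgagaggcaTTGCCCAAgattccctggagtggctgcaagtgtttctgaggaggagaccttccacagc
Cfd: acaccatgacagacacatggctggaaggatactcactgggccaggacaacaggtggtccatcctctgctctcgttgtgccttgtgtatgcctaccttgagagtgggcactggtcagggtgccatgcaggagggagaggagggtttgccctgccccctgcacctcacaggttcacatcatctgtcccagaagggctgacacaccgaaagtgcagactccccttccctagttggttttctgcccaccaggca
Lep: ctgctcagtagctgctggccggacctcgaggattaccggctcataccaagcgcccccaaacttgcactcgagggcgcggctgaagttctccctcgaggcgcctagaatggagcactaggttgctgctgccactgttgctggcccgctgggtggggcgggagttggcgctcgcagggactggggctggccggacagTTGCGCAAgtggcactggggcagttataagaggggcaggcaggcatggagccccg
The letters were found at 187 and 58 bases before the Plin1 start and at 55 bases before the Lep start, counted to the first base of the match. Of the 8 members with an entry, Plin1 and Lep held them, against 9.55% of 27025 promoters of this length. A direct repeat of AGGNCA with 1 base between, a site of Pparg with its partner receptor, was in 0.333% of promoters and in 0 of the 8. TATAAA was in 12.97% of promoters, also with 0 of the 8. All 3 motifs were searched on both strands. A match of letters is a description of the window and not a bound site.

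Adipoq, on chromosome 16 from 23146536 to 23158028, encodes adiponectin, a hormone made almost only by fat cells. In libraries 1 to 7 it was at 6.28, 1.01, 1.71, 6.54, 9.20, 2.42, and 0.343 CPM, from 6 counts in F318 ROV to 125 counts in F361. In libraries 8 to 11 it was at 0, 0, 0.148, and 1.02 CPM, the last from 22 counts in F333 uterus. The groups overlapped, since F333 uterus lay above F326 splenic tumor and F318 ROV. At the level of 3 counts, a count of 0 allows up to 0.118 CPM in F339 ROV and 0.131 CPM in F318 LOV, and the upper Wilson limits there were 0.151 and 0.168 CPM. The 95% Wilson interval of F326 ROV (5.37 to 7.97 CPM) overlapped those of F361 (7.73 to 10.97 CPM) and F364 ROV (5.16 to 7.64 CPM), which did not overlap each other. The next library, F319 ROV, lay clear of all 3 with 1.85 to 3.15 CPM. All other neighbors in the order of levels overlapped. Such intervals cover counting error only, since the reads carry no molecular identifiers.

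Cfd, on chromosome 10 from 79890853 to 79892655, encodes adipsin, a complement protease that fat cells secrete in bulk. Its levels in libraries 1 to 7 were 49.0, 8.92, 15.5, 36.0, 46.8, 13.03, and 2.11 CPM. In libraries 8 to 11 they were 0.274, 0.175, 0.481, and 1.53 CPM. The groups did not overlap, although F318 ROV and F333 uterus had overlapping intervals. The same 3 libraries as for Adipoq, F364 ROV, F361, and F326 ROV, were the highest, and F318 ROV was again the lowest of libraries 1 to 7. Counts of Cfd per count of Adipoq stayed between 5.09 and 9.07 in libraries 1 to 7, a 1.78-fold range, while Adipoq itself ranged 26.9-fold. This was the narrowest of 8 such ratios, for members and other fat genes chosen after their values were seen. Per count of Adipoq, Pck1 ranged 2.49-fold, Car3 3.93-fold, Gpd1 4.01-fold, Retn 4.26-fold, and Cidec 5.78-fold, and Plin1 and Lep reached 0. In the uterus lines the ratio of Cfd to Adipoq was lower, 3.25 in F319 uterus and 1.5 in F333 uterus, the former on 4 counts of Adipoq.

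Lep, on chromosome 6 from 29060220 to 29073877, encodes leptin, the hormone that reports fat stores to the brain. It was at 0.254, 0.127, 1.39, 4.41, 4.05, 0, and 0 CPM in libraries 1 to 7 and at 0.0784, 0, 0.111, and 0.186 CPM in libraries 8 to 11. Only F326 ROV with 66 counts, F361 with 55, and F364 LOV with 22 stood apart from the other 8, none of which had more than 4 counts. F364 ROV, among the highest for Adipoq and Cfd, had 4 counts of Lep. Retn, which encodes resistin of mouse fat cells and was not a member, was at 0.285 to 2.98 CPM in libraries 1 to 7, and 3 of libraries 8 to 11 held 0 counts of it.

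**Figure D1:**
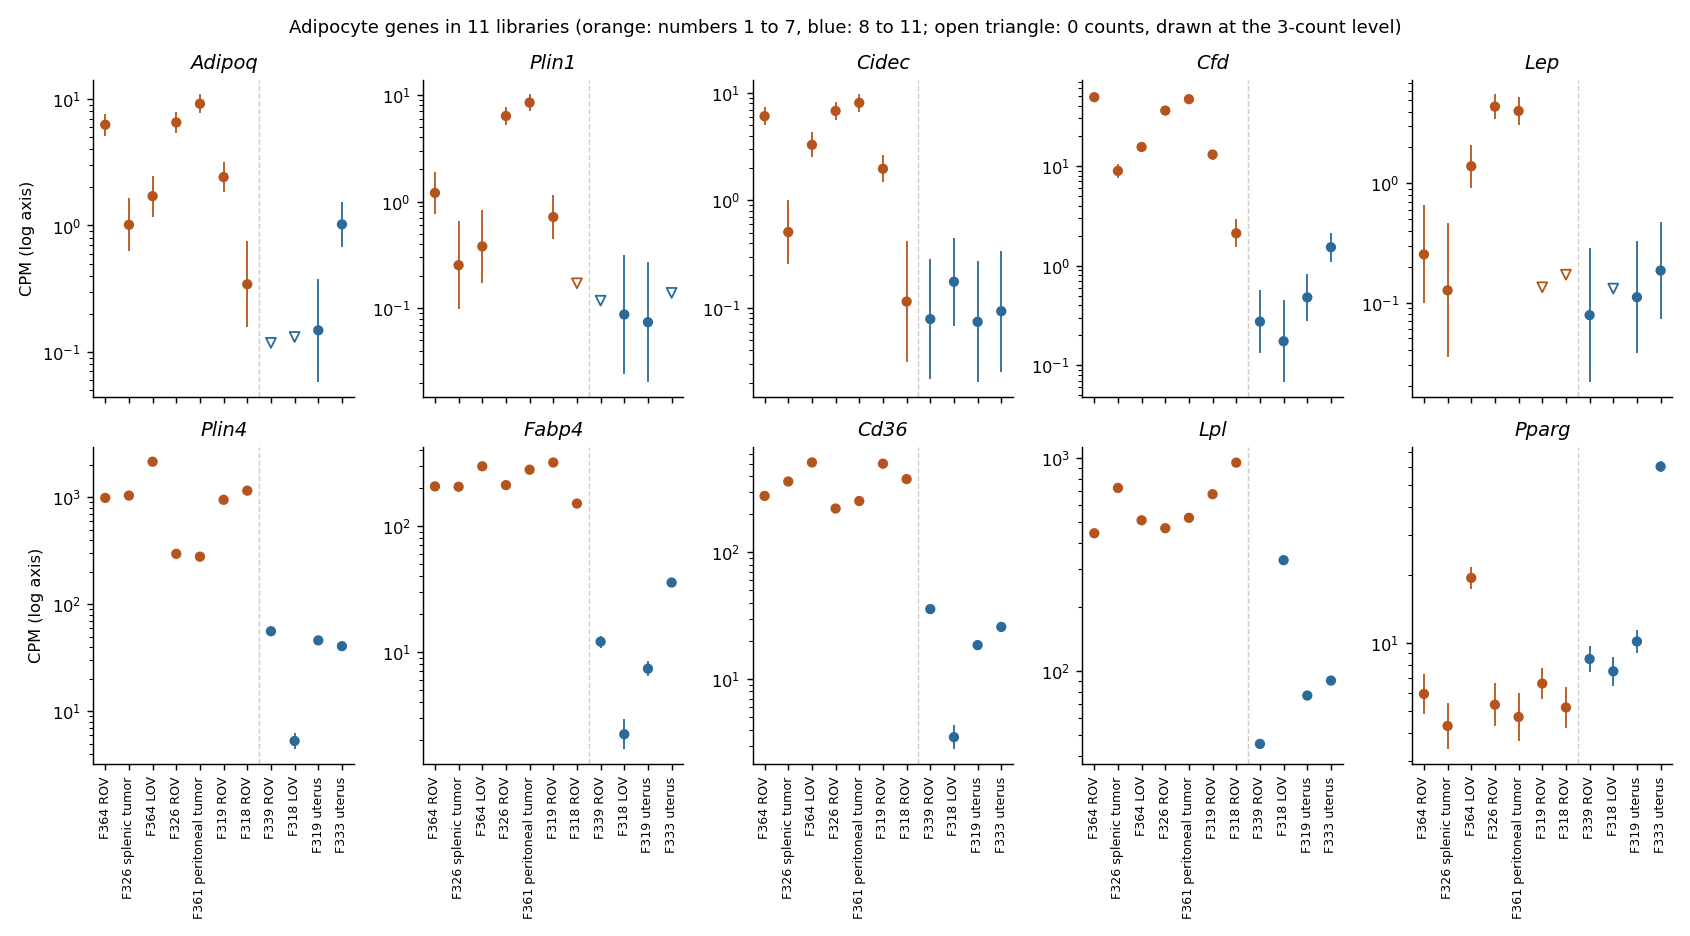
Level of each of the 10 genes in CPM on a log axis, 1 point per library in the order of the library numbers, with the 95% Wilson interval as a bar; orange is libraries 1 to 7, blue is libraries 8 to 11, and an open triangle is 0 counts drawn at the level of 3 counts. Adipoq, Plin1, Cidec, Cfd, and Lep were spread widely among the orange libraries, Plin4, Fabp4, Cd36, and Lpl lay above all blue ones, and Pparg was highest in F333 uterus.

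Plin1, on chromosome 7 from 79720218 to 79732903 on the minus strand, encodes perilipin 1, which coats the fat cell's droplet and gates its breakdown. It was at 1.20, 0.253, 0.380, 6.34, 8.47, 0.716, and 0 CPM in libraries 1 to 7. In libraries 8 to 11 it was at 0, 0.0873, 0.0740, and 0 CPM, together 4 counts. F361 with 115 counts and F326 ROV with 95 were far above every other library, and the next, F364 ROV, had 19 counts and an interval that did not reach them. Plin1 was not detected in F318 ROV or in any of libraries 8 to 11.

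Cidec, on chromosome 6 from 113424634 to 113435760 on the minus strand, encodes the protein that fuses small droplets into 1 large droplet. Its levels in libraries 1 to 7 were 6.09, 0.506, 3.29, 6.81, 8.10, 1.97, and 0.114 CPM. In libraries 8 to 11 they were 0.0784, 0.175, 0.0740, and 0.0928 CPM, together 10 counts. F361, F326 ROV, and F364 ROV formed the top again with overlapping intervals, and F318 ROV, with 2 counts, lay among libraries 8 to 11.

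Plin4, on chromosome 17 from 56100591 to 56109803 on the minus strand, encodes a perilipin of nascent droplets found in fat and in muscle. It was at 990, 1041, 2157, 297, 279, 950, and 1158 CPM in libraries 1 to 7 and at 56.1, 5.28, 46.0, and 40.7 CPM in libraries 8 to 11. The groups did not overlap. Within libraries 1 to 7, F361 and F326 ROV, the highest for Plin1, were the lowest for Plin4. Plin4 overlaps Hdgfl2 on the opposite strand, listed under its older symbol Hdgfrp2 at 94.2 to 149 CPM in libraries 1 to 7, against 116 to 169 CPM in libraries 8 to 11. The kit marks strand, but the strand setting of the counting is not given in the sources used here.

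Fabp4, on chromosome 3 from 10204088 to 10208576 on the minus strand, encodes the fatty acid carrier of fat cells, macrophages, and capillary endothelium. Its levels were 206, 204, 297, 210, 279, 317.96, and 150.3 CPM in libraries 1 to 7, against 12.1, 2.23, 7.36, and 35.5 CPM in libraries 8 to 11. The groups did not overlap, and libraries 1 to 7 stayed within a 2.12-fold range. F318 ROV, nearly without Plin1, Cidec, and Adipoq, had 150.3 CPM of Fabp4, and F318 LOV of the same mouse had the lowest level.

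Cd36, on chromosome 5 from 17781690 to 17888801 on the minus strand, encodes a fatty acid translocase of fat, muscle, endothelium, and macrophages. It was at 278, 361.3, 511, 221, 254, 499, and 377 CPM in libraries 1 to 7 and at 35.7, 3.49, 18.6, and 25.8 CPM in libraries 8 to 11. The groups did not overlap. As for Plin4, the lowest of libraries 1 to 7 were F326 ROV and F361, the libraries highest in Adipoq and Plin1.

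Lpl, on chromosome 8 from 68880491 to 68907448, encodes lipoprotein lipase, which frees fatty acids from circulating triglyceride and is made by fat cells, muscle fibers, and macrophages. It was at 444, 724, 510.4, 469, 524, 677, and 952 CPM in libraries 1 to 7 and at 45.5, 332, 76.7, and 90.2 CPM in libraries 8 to 11. The groups did not overlap, but F318 LOV, the library lowest in Myh4, Cd36, Plin4, and Fabp4 at 332 CPM, lay well above the other 3 of libraries 8 to 11. The highest level was in F318 ROV, from the other ovary of that mouse and the lowest of libraries 1 to 7 for Adipoq and Cfd.

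Pparg, on chromosome 6 from 115360951 to 115490399, was the member that did not follow the library numbers. It was at 5.96, 4.30, 19.4, 5.34, 4.71, 6.63, and 5.19 CPM in libraries 1 to 7 and at 8.51, 7.51, 10.2, and 60.3 CPM in libraries 8 to 11. F333 uterus was the highest with 1300 counts, F364 LOV followed, and the other 9 libraries lay between 4.30 and 10.2 CPM, where every pair of neighbors had overlapping intervals. F361 and F326 ROV, the highest for Adipoq and Plin1, were among the lowest for Pparg. An antisense gene overlaps Pparg, Gm44079, with at most 1 count in a library.

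The difference between the numbered libraries was then tested across all genes with edgeR's quasi-likelihood test, with p-values adjusted by the Benjamini-Hochberg method. Of 15954 genes that passed edgeR's filter on low counts, 29.9% were higher and 28.6% lower in libraries 1 to 7 at an adjusted p under 0.05. Of the 10 members, 9 passed the filter, 8 were higher, 0 were lower, and Pparg was not called. Plin1, Cidec, Adipoq, and Cfd passed the filter through libraries 1 to 7, since libraries 8 to 11 held 4, 10, 26, and 57 counts of them in all, so they could be called only higher and the count of members is no support for a direction. Lep did not pass the filter, and without the filter its log2 difference was 4.196 (edgeR adjusted p = 0.0468). In the 4 fits without 1 library in which it passed, its adjusted p was 0.0568 to 0.0879. The median log2 difference was 4.45 over the 9 members and -0.03 over all genes tested, and since 4 of the 9 values could only be higher, the former is a description. All 7 values lay above all 4 for 5 members (Plin4, Fabp4, Lpl, Cfd, and Cd36), which was so for 17.1% of genes tested. The members were not used to find the split, and the shares of all genes that differ are large.

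For the 4 members that could be called only higher, the differences are given as values and not as support. The log2 difference of Plin1 was 6.14 (SE 1.68, edgeR adjusted p = 0.00817), that of Cfd 5.69 (SE 1.05, adjusted p = 0.000831), that of Cidec 5.54 (SE 1.14, adjusted p = 0.00157), and that of Adipoq 4.08 (SE 1.32, adjusted p = 0.0189). For Plin1 the low side rests on 4 counts, so the size depends on how near-empty counts are treated, and without F364 ROV, F326 ROV, F361, or F319 ROV it did not pass the filter and was not tested. Plin4 rose by 5.10 (SE 0.81, adjusted p = 0.000329), Cd36 by 4.45 (SE 0.58, adjusted p = 0.000117), Fabp4 by 4.37 (SE 0.70, adjusted p = 0.000347), and Lpl by 2.53 (SE 0.50, adjusted p = 0.00124). For Pparg the log2 difference was -1.24 (SE 0.65, edgeR adjusted p = 0.118). It turned to 0.19 without F333 uterus, and passed the test at -1.75 without F364 LOV (adjusted p = 0.0245). Without F319 uterus, Adipoq was at 3.82 with an adjusted p of 0.0516. Each line gave 1 library, so these p-values measure the spread between lines, and lines of the same mouse are not independent.

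**Figure D2:**
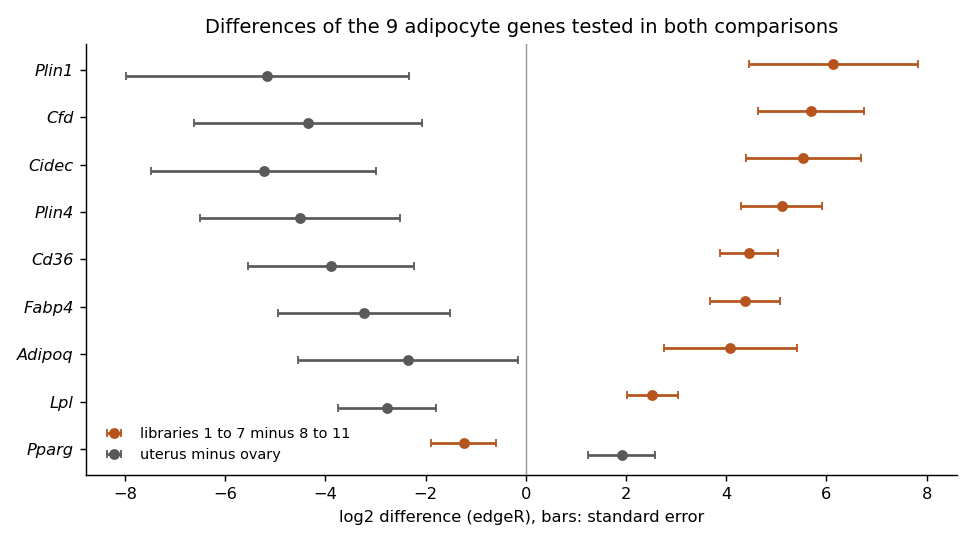
Log2 difference of the 9 genes tested in both comparisons, with the standard error from edgeR as a bar; orange is libraries 1 to 7 minus libraries 8 to 11, gray is uterus lines minus ovary lines. Of the orange points, 8 lie above 0 by more than their error and Pparg lies at -1.24, while the gray points carry larger errors.

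Organ and number were partly mixed, because both uterus lines are among libraries 8 to 11. Among ovary lines alone, 5 against 2, 22.1% of genes were higher, and 6 of the 10 members were called, all higher. Adipoq was one of them at a fitted 9.26 (edgeR adjusted p = 0.0132), but both low lines had 0 counts of it, so only a higher call was possible and the size is no bound. Cidec and Cfd were called too, on 2 and 7 counts in F339 ROV and 4 counts each in F318 LOV. They also entered through libraries 1 to 7, so the count of members is no support for a direction. Plin1 (5.52, adjusted p = 0.0888) and Lpl (2.01, adjusted p = 0.0553) were not called. Pparg stood at 0.49 there (adjusted p = 0.563). With mouse as a block, the comparison rests on mice F318 and F319, which have lines on both sides. Then 13.5% of genes were higher, and 5 members were called, Plin4, Fabp4, Lpl, Cfd, and Cd36. Adipoq (4.49, edgeR adjusted p = 0.0673), Plin1 (1.69, adjusted p = 0.602), and Cidec (2.53, adjusted p = 0.356) were not. In F318, Cfd was at 2.11 CPM in the ROV line and 0.175 CPM in the LOV line, and Adipoq at 0.343 and 0 CPM. In F319, Cfd was at 13.03 CPM in the ROV line and 0.481 CPM in the uterus line, and Adipoq at 2.42 and 0.148 CPM.

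Lines of 1 mouse within libraries 1 to 7 also differed. F326 ROV had 6.54 CPM of Adipoq and 6.34 CPM of Plin1, whereas F326 splenic tumor had 1.01 and 0.253 CPM, and none of these intervals overlapped between the lines. Plin4 ran the other way, with 297 CPM in F326 ROV and 1041 CPM in F326 splenic tumor. F364 ROV exceeded F364 LOV for Adipoq (6.28 and 1.71 CPM) and Cfd (49.0 and 15.5 CPM), but F364 LOV had more Lep (1.39 and 0.254 CPM) and Plin4 (2157 and 990 CPM). These are single libraries, with no replicate of a line to test them.

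Counts of each member were then set against counts of Myh4, the heavy chain of the fastest muscle fibers, on chromosome 11 from 67238029 to 67260446. Over the 11 libraries Myh4 ranged 94.9-fold. Fabp4 had 6.71 to 12.4 counts per 1000 Myh4 counts in libraries 1 to 7 and 6.56 to 13.3 in libraries 8 to 11, a 2.02-fold range over all 11. Cd36 had 7.99 to 31.2 and 9.65 to 22.8, a 3.91-fold range over all 11. Plin4 had 10.7 to 95.7 and 15.2 to 43.5, an 8.93-fold range. For these 3 genes the ratios of libraries 8 to 11 fell within or next to those of libraries 1 to 7. As a scale for these ranges, 19 muscle fiber genes with at least 100 counts in each of libraries 1 to 7 ranged from 1.42-fold (Mybpc2) to 8.42-fold (Casq1) per Myh4 there, with a median of 2.49-fold, and Fabp4 ranged 1.85-fold.

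The ratios of the genes near-restricted to fat differed from gene to gene. Within libraries 1 to 7, where Myh4 ranged only 2.66-fold, Adipoq had 0.0283 to 0.363 counts per 1000 Myh4 counts, a 12.8-fold range, and Cfd 0.175 to 1.85, a 10.6-fold range. Cidec ranged at least 22.6-fold, Plin1 at least 28.3-fold, and Lep at least 34.3-fold, with libraries under 3 counts set to 3. Without F318 ROV, a setting chosen after the values were seen, the range was 6.84-fold for Adipoq, 4.09-fold for Cfd, and at least 10.6-fold for Cidec, against 6.25-fold for Plin4, 2.70-fold for Cd36, and 1.82-fold for Fabp4. The wide ranges of Adipoq, Cfd, and Cidec thus rested in part on 1 library. Those of Plin1 and Lep were as before without it, but fell to at least 19.4-fold for Plin1 without F361 and at least 19.3-fold for Lep without F319 ROV. In libraries 8 to 11 Cfd had 0.175 to 0.573 counts per 1000 Myh4 counts, inside its range in libraries 1 to 7. F318 ROV was the lowest of libraries 1 to 7 for Adipoq, Cfd, and Cidec, and F361 the highest of libraries 1 to 7 for all 5, although for Lep F326 ROV was level with it (0.160 and 0.159). Among libraries 8 to 11, F333 uterus had 0.382 Adipoq counts per 1000 Myh4 counts, as high a ratio as that of F361, while F339 ROV, with 40000 counts of Myh4, had 0 counts of Adipoq. Lpl had 14.5 to 78.8 counts per 1000 Myh4 counts in libraries 1 to 7. It had 29.0 in F339 ROV, 72.6 in F319 uterus, and 33.7 in F333 uterus, inside that range, and 978 in F318 LOV. Pparg had 0.186 to 0.604 in libraries 1 to 7 and 5.43 to 22.6 in libraries 8 to 11, without overlap.

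**Figure D3:**
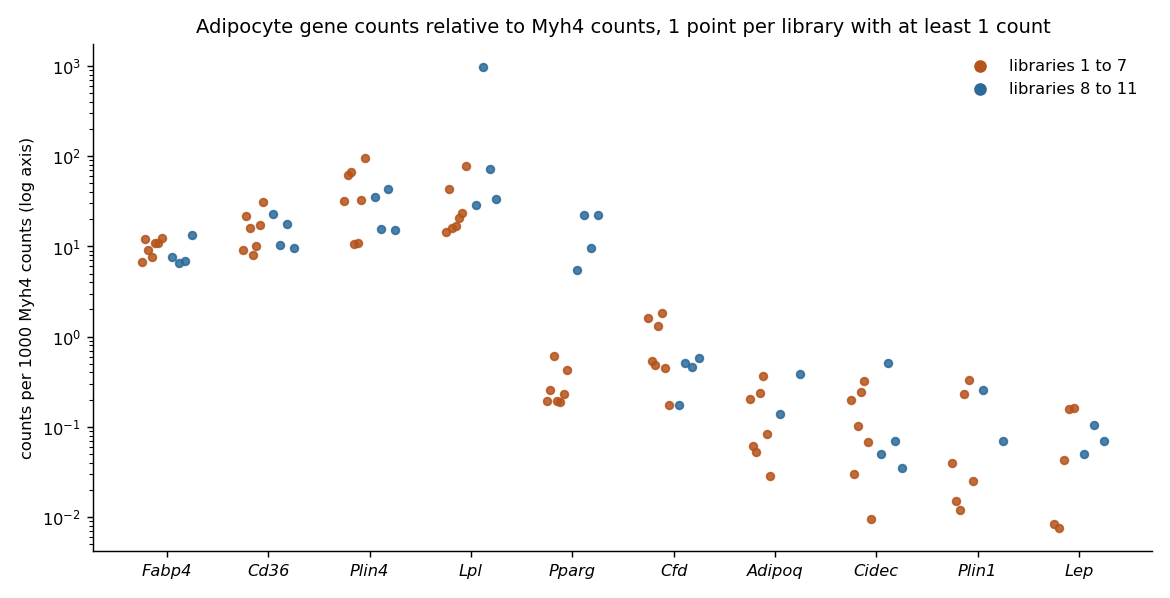
Counts of each gene per 1000 Myh4 counts on a log axis, 1 point per library with at least 1 count; orange is libraries 1 to 7 and blue is libraries 8 to 11. Fabp4 lay in a band from 6.56 to 13.3 in all 11 libraries, Adipoq, Cidec, Plin1, and Lep were spread far more widely, and Lpl reached 978 in F318 LOV.

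Because Myh4 separates the libraries into clusters, its relation to the members was tested within libraries 1 to 7 and not over all 11. Within libraries 1 to 7 (n = 7, from 5 mice), the 9 members with at least 10 counts in at least 4 libraries were set against Myh4 as log2(CPM + 1), with exact two-sided permutation tests. The permutations treat lines of the same mouse as independent, which they are not. Pearson's r was 0.682 for Adipoq (exact permutation p = 0.0984, adjusted 0.177) with a Spearman's rho of 0.321 (exact permutation p = 0.498, adjusted 0.625). It was 0.798 for Cfd (exact permutation p = 0.0298, adjusted 0.0923, with a rho of 0.571, exact p = 0.200, adjusted 0.450), 0.809 for Cidec (exact permutation p = 0.0308, adjusted 0.0923, with a rho of 0.393, exact p = 0.396, adjusted 0.625), and 0.756 for Fabp4 (exact permutation p = 0.0446, adjusted 0.1004, with a rho of 0.679, exact p = 0.110, adjusted 0.329). Lpl went the other way with -0.870 (exact permutation p = 0.0127, adjusted 0.0923, with a rho of -0.75, exact p = 0.0663, adjusted 0.298). Of the 9 members, 0 passed an adjusted p of 0.05 by r or by rho, and the exact permutation p before adjustment was under 0.05 for 4 by r and for 1, Pparg, by rho (0.857, exact permutation p = 0.0238, adjusted 0.214). Plin1 (0.423), Pparg (0.492), Plin4 (-0.11), and Cd36 (-0.04) had weaker r.

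The 2 libraries farthest from the Myh4 median were F318 ROV and F326 splenic tumor, which have the least Myh4 of the 7. Without them r became -0.734 for Adipoq, -0.467 for Cfd, -0.532 for Cidec, 0.002 for Fabp4, and -0.139 for Lpl. The relations of these 5 genes therefore rest on those 2 libraries. For the other 4, r over the remaining 5 libraries was -0.890 for Plin1, 0.924 for Plin4, 0.606 for Cd36, and 0.776 for Pparg, so those of Plin1, Plin4, and Cd36 changed sign. Of libraries 1 to 7, F318 ROV and F326 splenic tumor were also the lowest for Adipoq and Cfd. The plot of Adipoq and Fabp4 against Myh4 shows this for Adipoq.

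**Figure D4:**
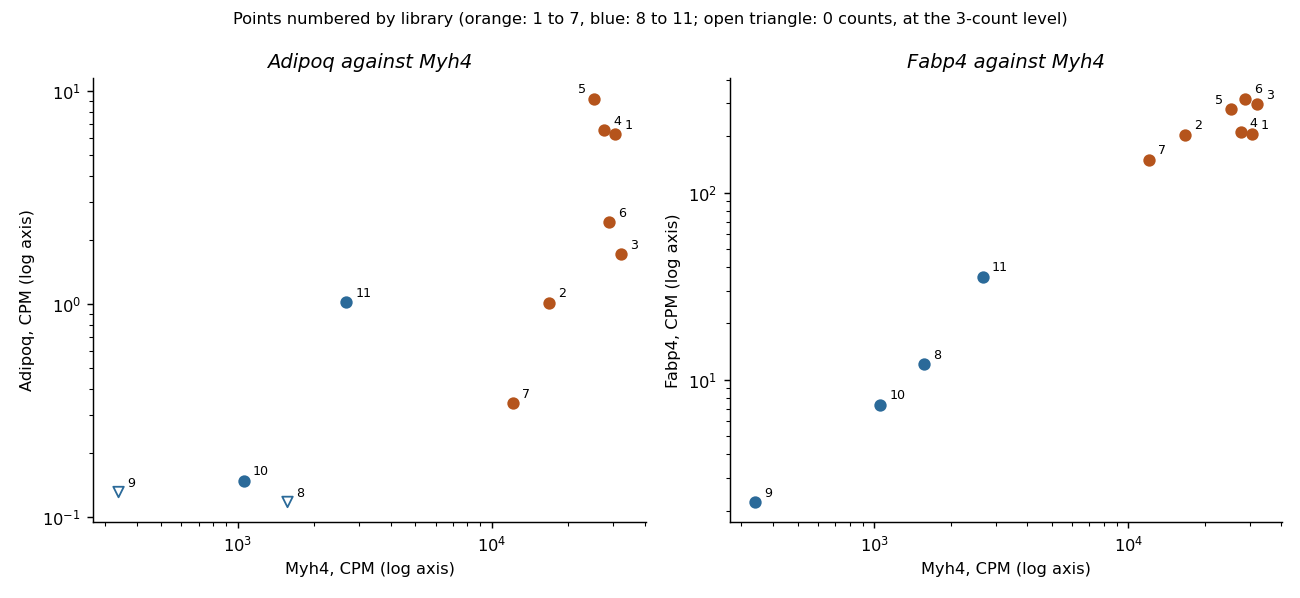
Adipoq (left) and Fabp4 (right) against Myh4, all in CPM on log axes, with each point numbered by library; orange is libraries 1 to 7, blue is libraries 8 to 11, and an open triangle is 0 counts of Adipoq drawn at the level of 3 counts. Fabp4 and Myh4 were both higher in every orange library than in any blue one, whereas among libraries 1, 3, 4, 5, and 6, with close levels of Myh4, Adipoq ranged from 1.71 to 9.20 CPM.

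The genes with the pattern most like each member over the 11 libraries, by Pearson's r of log2(CPM + 1) among 15945 genes, are given as a description. Fabp4 was closest to Mybpc2 (0.993), Myh8 (0.992), and Myh4 (0.990), and Cd36 to Coro6 (0.991), Mypn (0.990), and Adcy2 (0.988). Plin4 was closest to Myo18a (0.993), Xirp1 (0.991), and Apod (0.987). Adipoq was closest to Mylk4 (0.976), Shisa3 (0.969), and Ccdc69 (0.969), Cfd to 0610040J01Rik (0.984), Mettl11b (0.981), and Ccdc69 (0.980), and Cidec to Gm11628 (0.982), Syt3 (0.981), and Krt6a (0.975). Plin1 was closest to Krt5 (0.985), Gm45106 (0.984), and Chad (0.981), Lep to Dpp6 (0.967), Amd-ps1 (0.965), and Gdap1 (0.953), Lpl to Sord (0.953), Scx (0.952), and Otud1 (0.936), and Pparg to Tatdn2 (0.909), Ccl9 (0.899), and Abca7 (0.875). The points share libraries, depth, and the split by number.

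Other genes of the white fat cell gave a mixed account. Of 24 listed, 23 were tested, of which 13 were higher in libraries 1 to 7, 2 were lower, and 8 were not called, with a median log2 difference of 3.19. Over all genes tested, 29.9% were higher and 28.6% lower, the shares against which the counts of every list stand. The largest fitted difference was that of Retn, 6.17 (SE 1.06, edgeR adjusted p = 0.000517). Retn had at most 0.0784 CPM in libraries 8 to 11, under the level of 3 counts, and so could also be called only higher. Orm1, Pck1, and Sfrp5 had at most 0.139, 0.464, and 0.557 CPM there and entered the test through libraries 1 to 7. The count of 13 and the median are thus no support for a direction. Car3, a carbonic anhydrase abundant in fat and in slow muscle, had the highest level, 66.4 to 1742 CPM in libraries 1 to 7, against 9.34 to 124 CPM in libraries 8 to 11. The regulator Cebpa, named after its values were seen, was at 6.46 to 14.8 and 2.07 to 37.0 CPM and was not called. Scd1, which desaturates fatty acids, fell by 1.37 on the log2 scale (SE 0.51, edgeR adjusted p = 0.0365). Fasn, the fatty acid synthase, chosen after its values were seen, fell by 1.34 (SE 0.38, edgeR adjusted p = 0.01004). Acvr1c had the lowest level, at most 1.14 CPM. The rises of Pnpla2 and Slc2a4, the triglyceride lipase and the insulin-responsive glucose carrier of both fat and muscle, were also named after their values were seen and were 4.51 (SE 0.44) and 5.20 (SE 0.62), with edgeR adjusted p-values of 3.67e-05 and 7.89e-05.

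Of 10 genes of brown and beige fat, 7 were tested and 7 were called higher. Zic1 and Cidea entered the test through libraries 1 to 7. Dio2 and Prdm16, down to 0 and 0.186 CPM in libraries 8 to 11, also needed libraries 1 to 7 to pass the filter. This count is therefore no support for a direction. Ucp1, the uncoupling protein that defines brown fat, was not one of them, and had at most 0.147 CPM in any library, under the level of 3 counts there. Cox8b, a subunit of cytochrome oxidase found in brown fat and in muscle, was the highest at 201 to 463 CPM against 2.92 to 35.4 CPM. Zic1 was at 0.457 to 1.39 CPM in libraries 1 to 7 and at 0 counts in libraries 8 to 11, and Cidea was at 1.71 to 4.30 CPM and at most 0.627 CPM. Of 14 genes of fat progenitors, 13 were found and tested, 4 were higher, 3 lower, and 6 not called, with a median of 0.24, so that the shares in both directions were near those of all genes. Pi16 rose the most (4.29, SE 1.31, edgeR adjusted p = 0.0140), and Ebf1 fell by 2.16 (SE 0.55, edgeR adjusted p = 0.00563). Pdgfra, the receptor that marks these progenitors, was at 10.02 to 163 CPM and 15.04 to 172 CPM and was not called. Cebpd had the highest level of this list, up to 757 CPM, and Dpp4 the lowest, up to 3.31 CPM.

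Relatives of the members gave a contrast within families. Of 11 listed, 9 were tested, 4 were higher, 2 lower, and 3 not called, with a median of 0.35. Fabp3, the muscle and heart form of the carrier, was at 181 to 403 CPM in libraries 1 to 7, against 5.92 to 31.6 CPM in libraries 8 to 11 and rose by 4.86 (SE 0.63, edgeR adjusted p = 0.000117). Fabp5, the form of many epithelia, fell by 1.63 (SE 0.54, edgeR adjusted p = 0.0221). Plin5, the perilipin of oxidative muscle, rose by 5.85 (SE 0.74, edgeR adjusted p = 0.0001002), and Lipc, the hepatic lipase, had the lowest level, at most 0.392 CPM. Per 1000 Myh4 counts Fabp3 had 5.93 to 20.9 counts in libraries 1 to 7 and 5.33 to 17.8 in libraries 8 to 11. Overlap of this kind was not limited to lipid genes. Pecam1 of the endothelium, the first gene of its list, had 2.02 to 5.77 and 1.03 to 5.0 counts per 1000 Myh4 counts, and C1qa of macrophages 0.317 to 1.37 and 0.257 to 0.770. Gpihbp1, which holds Lpl on capillaries, had 2.07 to 4.10 and 0.257 to 1.38, and Csf1r of macrophages 0.224 to 0.652 and 1.23 to 9.65, both without overlap. The latter 3 were named after their values were seen.

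Markers of other cells moved with the same split, and their part in the members' differences was not tested. The split was noticed on muscle genes, so the muscle fiber list is given as a description with no test. Its log2 differences ran from 3.43 (Tnnt3) to 6.89 (Myh7) in 22 genes, and Pygm was at 0 counts in libraries 8 to 11. Of 10 endothelial genes, 8 were higher, with a median of 4.72 and a summed level of 260 to 657 CPM against 3.49 to 231 CPM. In libraries 8 to 11, the lowest values of Cldn5, Gpihbp1, Tie1, Pecam1, Vwf, and Esam were 0.0873 to 0.436 CPM. These genes needed libraries 1 to 7 to pass the filter, so this count and median are no support for a direction. Pecam1, the endothelial adhesion molecule, was at 37.6 to 94.3 CPM against 0.349 to 7.84 CPM, Cldn5 rose the most (6.75, SE 1.06, edgeR adjusted p = 0.000320), and Tek had the lowest level, 5.95 to 24.5 CPM against 0.555 to 1.86 CPM. The highest of the endothelial sums in libraries 8 to 11 was that of F339 ROV, where Emcn was at 154 CPM and Cdh5 at 61.9 CPM, both named after their values were seen. Of 10 macrophage genes, 9 were higher, with a median of 4.31 and a summed level of 70.6 to 153 CPM against 6.59 to 14.9 CPM. In libraries 8 to 11, the highest values of Itgam, Adgre1, Ptprc, C1qb, and Tyrobp were 0.0928, 0.148, 0.274, 0.392, and 0.549 CPM. These genes entered the test through libraries 1 to 7, so this count and median are no support for a direction. Lyz2 was the highest, 17.0 to 78.0 CPM against 1.70 to 7.37 CPM, C1qb rose the most (5.87, SE 0.39), and Itgam was the lowest. Ptprc, the pan-leukocyte gene, was at 0.759 to 1.97 CPM against 0 to 0.274 CPM. In bulk libraries, fewer cells of a type and less RNA per cell cannot be told apart.

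**Figure D5:**
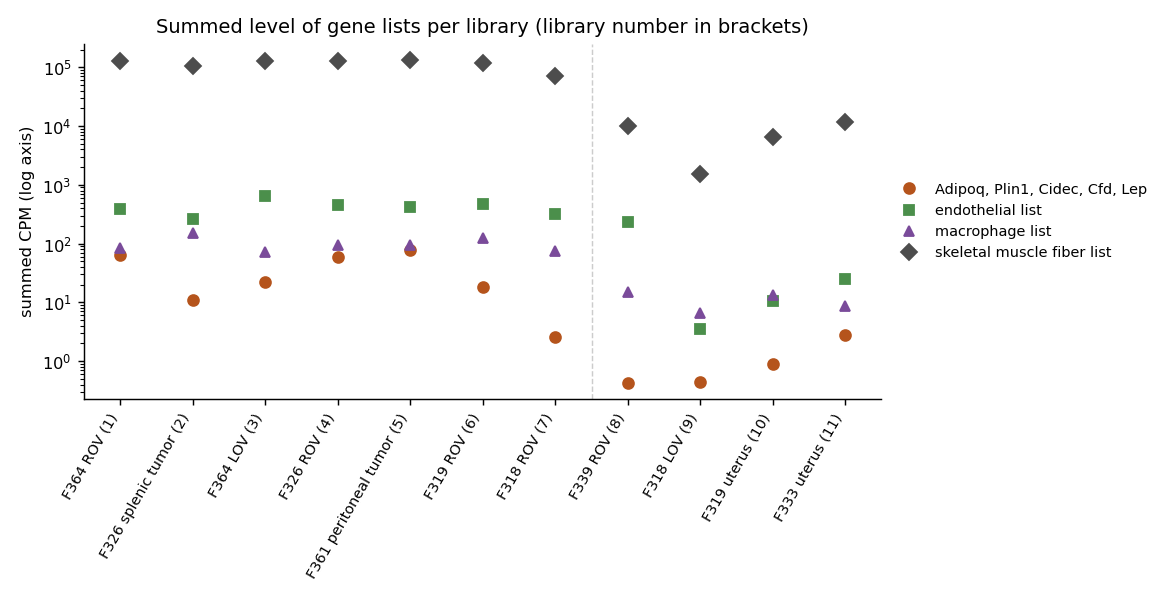
Summed CPM per library on a log axis for Adipoq, Plin1, Cidec, Cfd, and Lep together and for the endothelial, macrophage, and skeletal muscle fiber lists, with library numbers in brackets. The sum of the 5 fat genes ran from 2.57 to 76.7 CPM in libraries 1 to 7 and from 0.431 to 2.83 CPM in libraries 8 to 11, so that F318 ROV lay under F333 uterus, whereas the muscle fiber sums did not overlap.

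The organ of origin is the contrast that the titles give, and the 2 uterus lines were compared with the 7 ovary lines across 17446 genes. By edgeR, 0.0% of genes and 0 of the 10 members passed an adjusted p of 0.05. At an unadjusted p under 0.05 there were 2309 genes, or 13.2%, and DESeq2 called 1297 genes. The log2 difference was -2.35 for Adipoq (SE 2.19), -4.35 for Cfd (SE 2.27), -5.16 for Plin1 (SE 2.82), -5.23 for Cidec (SE 2.25), and -2.85 for Lep (SE 2.52). For Plin4 it was -4.51 (SE 1.99), for Fabp4 -3.23 (SE 1.72), for Cd36 -3.89 (SE 1.65), and for Lpl -2.76 (SE 0.97). Pparg alone was above 0, at 1.91 (SE 0.68), and without F333 uterus it was at -0.033. The edgeR adjusted p-values of the 10 members ran from 0.359 to 0.536. DESeq2 called Plin4 (-4.58), Lpl (-2.81), Cidec (-5.40), and Cd36 (-3.94) lower, beside 1101 of the 17446 genes lower and 196 higher. Cidec had 2 counts in each uterus line, so it passed the filter through the ovary lines and could be called only lower. Of the 7 ovary lines, 5 are among libraries 1 to 7 and 0 of the uterus lines are, so organ and number cannot be told apart there. Within libraries 8 to 11, 2 uterus against 2 ovary lines, edgeR called 0 genes, with 522 at an unadjusted p under 0.05, and Plin4 (0.53), Fabp4 (1.67), Cfd (2.19), and Cd36 (0.23) were on the other side of 0. There, the uterus lines had 0.148 and 1.02 CPM of Adipoq, and both ovary lines had 0 counts.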

How the data were processed

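RNA of 11 OvTrpMyc cell lines was sequenced with polyA selection and a directional kit, 1 library per line. Per the methods, RNA STAR placed read pairs on GRCm38, and SAMtools RmDup then dropped PCR copies. The authors counted the remaining reads on Ensembl genes by featureCounts, and the counts used here are raw as deposited. Versions and the strand setting of the counting are not given in the sources used here. Removal of duplicates can lower the counts of abundant genes such as Myh4 more than those of rare ones. Values in FPKM or TPM were not used here.

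The titles gave the groups, and the descriptions the library numbers. The members and gene lists were chosen with earlier results of these data known. All 10 members and 111 of the 113 listed genes were found by symbol, with Trarg1 under its older symbol Tusc5, and Dlk1 and Acta1 were not matched. No pair of libraries had identical counts.

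CPM was the count divided by the library total and scaled to 1000000. Differences were tested with edgeR 4.0.16 in R 4.3.3 (TMM, filterByExpr, quasi-likelihood test, Benjamini-Hochberg adjusted p under 0.05), with DESeq2 1.42.0 as an alternative. On simulated counts with a dispersion of 0.1 and 200 genes changed by a log2 difference of 2, the test of the numbered libraries found 100% with 8 false calls among 15954 genes, and the test of the organs found 95.5% with 5 false calls among 17446 genes, which holds for that dispersion only. Exact permutation over all 5040 orders, Wilson intervals at 95% confidence, and ratios were computed in Python 3.11.15 with scipy 1.17.1, numpy 2.4.6, and pandas 2.3.3. With 7 libraries the smallest p these permutations can give is 0.000397. Positions are those of GENCODE M21 on GRCm38, and promoters those of RefSeq on GRCm38.p6, in which 8 members had an entry.

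All members were named. From each other list the text names the gene listed first, the highest and lowest mean CPM, and the largest called change in each direction. Cebpa, Fasn, Pnpla2, Slc2a4, Pck1, Gpd1, Emcn, Cdh5, Gpihbp1, C1qa, and Csf1r were added after their values were seen. Genes named for their low levels in libraries 8 to 11 were also picked by their values. For likeness it names the 3 genes with the highest r. Alternatives were the normalization, the filter, the pseudocount, ovary lines only, mouse as a block, libraries 8 to 11 only, each library left out, and counts outside the muscle list. Mutant allele reads and protein were not analysed here.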

Additional observations from a re-analysis of the deposited data

Results flagged for a closer look

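In 30 checks of a member within a group of lines, 7 values stood apart by Dixon's criterion at 95%. The criterion gives about 1 of 20 by chance only for independent, normally spread values. CPM values are skewed and the groups share lines, so the 7 are not an excess over that rate. Of libraries 8 to 11, F333 uterus had 1.02 CPM of Adipoq, next to 0.148 CPM in F319 uterus. It also had 60.3 CPM of Pparg, next to 10.2 CPM in F319 uterus, and the gap was 0.9496 of the range. F318 LOV had 332 CPM of Lpl, next to 90.2 CPM in F333 uterus. F364 LOV had 19.4 CPM of Pparg and stood apart both from the other libraries 1 to 7, the nearest at 6.63 CPM, and from the other ovary lines, the nearest at 8.51 CPM. Of the ovary lines, F326 ROV had 6.34 CPM of Plin1, next to 1.20 CPM, and 4.41 CPM of Lep, next to 1.39 CPM, in both cases below or near the peritoneal tumor line F361, which is not an ovary line.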

How the results depend on the processing

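Between libraries 1 to 7 and 8 to 11, 9337 genes passed the test, and 8526 to 9311 did when any 1 library was left out, with 7 to 9 members, although Plin1 could be tested in only 7 of the 11 such fits. With mouse as a block 3028 genes and 5 members passed. With library totals in place of TMM, 9812 passed, of which 3734 were higher, against 4769 of 9337, the median of all genes moved to -0.40, and Pparg passed at -1.55 (edgeR adjusted p = 0.0419). Pparg was at 0.49 in ovary lines only and at -1.75 to 0.19 when 1 library was left out, the upper end without F333 uterus. For uterus against ovary, DESeq2 called 1297 genes and 4 members, no filter gave 2 genes, and leaving out 1 library gave 0 to 1 genes, the 1 without F333 uterus. In libraries 8 to 11 only, Plin4 was at 0.53, Fabp4 at 1.67, Cfd at 2.19, and Cd36 at 0.23, and Pparg was at -0.033 to 2.73 when 1 library was left out, the lower end without F333 uterus. The r of Cd36 with Myh4 was 0.0113 with counts outside the muscle list. The causes were not tested. Libraries 8 to 11 hold 4, 10, 9, and 26 counts of Plin1, Cidec, Lep, and Adipoq in all, so the differences of these genes rest on few counts. The 12.8-fold range of Adipoq per Myh4 in libraries 1 to 7 was 6.84-fold to 12.8-fold when 1 library was left out, a setting added after the values were seen, with the lowest value without F318 ROV and 8.34-fold without F361. Ovary lines only gave 6757 genes and 6 members between the numbered libraries. Of the values of single genes, 8 changed sign, 6 lost a call, 6 gained one, and 271 kept their direction and their side of the threshold. Those 271 include Pparg between the numbered libraries with DESeq2, which gave no adjusted p, so only its direction is known.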
